A study of Mus musculus with 24 samples.

Results

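Insulin receptor signalling in liver was followed through 10 genes, picked by symbol from the 22355 genes of a liver count table: the receptor genes Insr and Igf1r, the docking protein genes Irs1 and Irs2, the phosphoinositide 3-kinase subunit gene Pik3r1, the kinase genes Akt1 and Akt2, the receptor-binding adaptor genes Grb10 and Grb14, and Depp1, a gene induced by FOXO transcription factors. All 10 were in the table, and all 10 were among the 11508 genes with enough counts to be tested. The study took livers from diet-induced obese (DIO) mice that had been treated for 4 d with IUB288, an agonist of the glucagon receptor known by its code name, or with vehicle. The IUB288 livers were collected either 4 h or 22 h after the final dose, and the vehicle livers 22 h after theirs. Each of the 3 groups held 8 mice, and each mouse gave 1 library. All groups therefore shared the obese background, and strain, sex, age, diet and dose are not given in the sources used here. The 22 h livers and the vehicle livers were matched in time after the injection. The 4 h livers differed from the vehicle livers in treatment and in time, and these cannot be told apart.

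Insulin binding to its receptor leads to tyrosine phosphorylation of the IRS proteins, which recruit phosphoinositide 3-kinase (PI3K) and, through its lipid product, activate AKT. In hepatocytes AKT keeps FOXO factors out of the nucleus, which lowers transcription of genes of glucose production, while insulin raises genes of fat synthesis. Glucagon acts through cAMP and is the main hormone opposing insulin in liver, and Irs2 is known to be transcribed more in fasted than in fed liver.

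The data showed the docking protein genes Irs1 and Irs2 above vehicle at both times, and most so at 4 h. Depp1 was 40.2-fold below vehicle at 4 h, and its level at 22 h lay between those of the 4 h and vehicle livers. Pik3r1 was above vehicle at 4 h and below it at 22 h, and Grb10 was below vehicle at 22 h. Insr did not pass the test in any comparison. Levels are given as CPM, the count of a gene put on a common library size, with library sizes scaled by TMM, which evens out differences in RNA composition. A gene is called higher or lower when its Benjamini-Hochberg adjusted p in limma-voom, over all genes tested, was under 0.05.

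Library totals ran from 24.7 to 35.2 M counts at 4 h, from 25.8 to 35.2 M at 22 h and from 13.99 to 44.1 M in vehicle. Hepatocyte markers such as Alb were abundant in all groups. Vehicle replicate 1 stood apart, with 1381 CPM of Ucp1, the uncoupling protein of brown fat, against at most 0.576 CPM in any other liver. Its sum over the 11 adipocyte markers was 8639 CPM, against at most 5459 CPM in the other vehicle livers. It also had 186 CPM over the 8 skeletal muscle markers, against at most 2.27 CPM in any other liver. Results without that liver are given for Akt2, for Depp1 at 22 h and for some list counts. Markers of other cell types differed between the groups. Of all genes tested, 22.4% were lower than vehicle at 4 h and 19.2% at 22 h, while 21.8% and 17.6% were higher. Endothelial markers summed to 346 to 412 CPM at 4 h, 158 to 384 CPM at 22 h and 338 to 616 CPM in vehicle, with 5 of 9 lower than vehicle at 4 h and 9 of 9 lower at 22 h. Stellate and fibroblast markers summed to 391 to 670 CPM at 4 h, 218 to 646 CPM at 22 h and 708 to 1321 CPM in vehicle, with 6 of 9 lower at 4 h and 8 of 9 lower at 22 h. Vehicle replicate 1 held the highest sum of both lists, and the other vehicle livers reached at most 555 and 1048 CPM. All marker calls are with that liver included. No marker of either list was at 0 in all livers. Of the other lists, 6 of 7 adipocyte, 5 of 8 Kupffer cell and 4 of 7 lymphocyte markers tested were lower at 22 h. So were 4 of 5 erythroid and 2 of 6 cholangiocyte markers, the last nearest to the 19.2% of all genes. Of 9 hepatocyte markers 4 were higher and 4 lower at 22 h. In whole liver, fewer cells of a type and less RNA per cell cannot be told apart. Genes whose Entrez number sorts after 50932 as text, 33.1% of RefSeq protein-coding genes, among them Foxo1, Foxo3, Mtor and Gsk3b, were not analysed here.

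**Figure D1:**
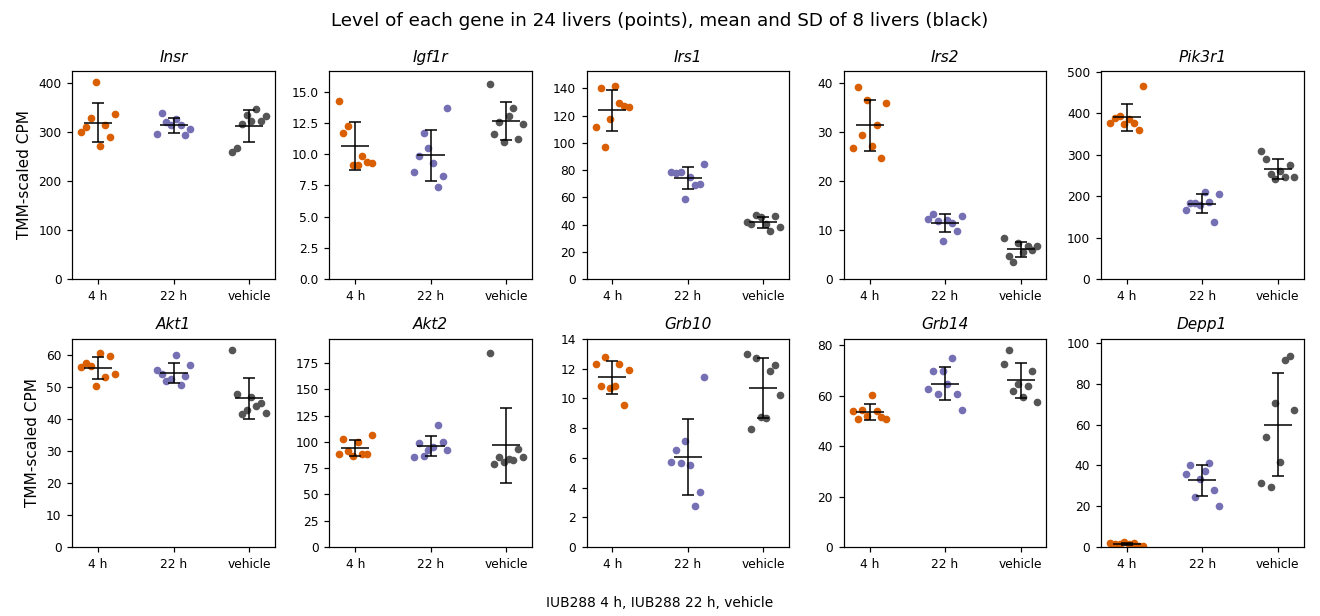
Level of each of the 10 genes in every liver, in TMM-scaled CPM on linear axes that start at 0, for IUB288 4 h, IUB288 22 h and vehicle livers. Points are single livers and black lines are the mean and SD of 8 livers; Irs1 and Irs2 descend from 4 h to 22 h to vehicle, Depp1 at 4 h lies between 0.367 and 2.29 CPM, and vehicle replicate 1 stands alone for Akt2 at 184 CPM.

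At 4 h, 6 of the 10 genes changed against vehicle in limma-voom, 4 of them higher and 2 lower, beside 44.2% of all 11508 genes tested, 21.8% higher and 22.4% lower. At 22 h, 7 changed against vehicle, 3 higher and 4 lower, beside 36.8% of all genes, 17.6% higher and 19.2% lower. Between 22 h and 4 h, 6 changed, 2 higher and 4 lower at 22 h, beside 29.2% of all genes, 14.3% higher and 15% lower. The median absolute log2 fold change of the 10 genes was 0.29, 0.47 and 0.51 in the 3 comparisons, against 0.35, 0.28 and 0.26 over all genes. The 8 livers of each group did not overlap for 4 of the 10 genes at 4 h against vehicle, for 2 at 22 h against vehicle and for 4 at 22 h against 4 h, and over all genes the share was 16.05%, 7.40% and 10.7%. The 8 vehicle livers served both comparisons with vehicle.

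**Figure D2:**
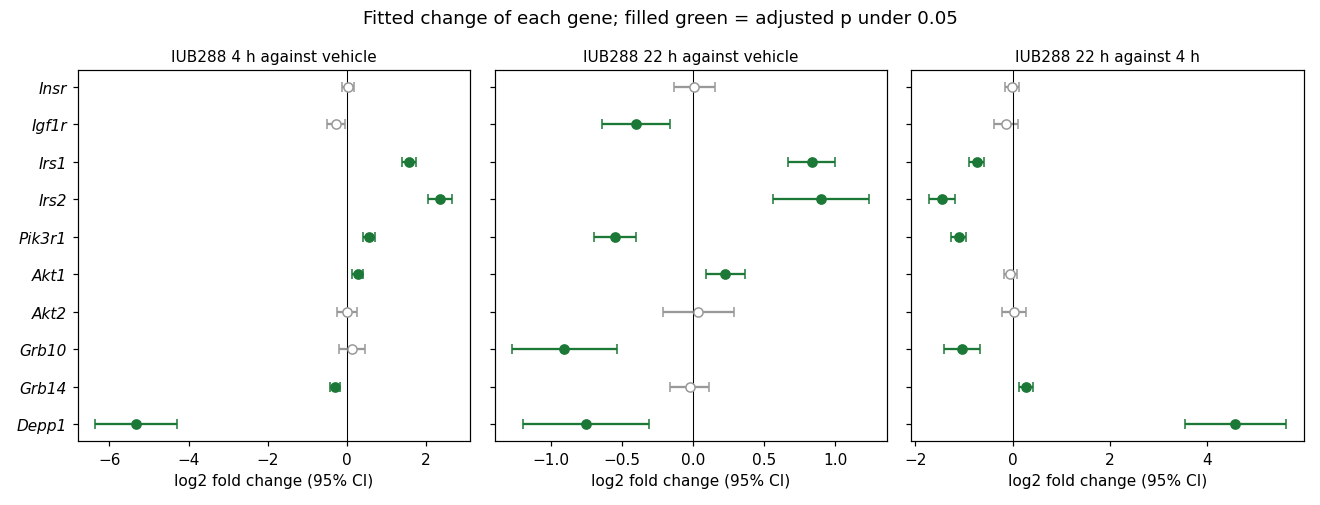
Fitted log2 fold change of each gene with its 95% confidence interval (CI) from limma-voom, in IUB288 4 h against vehicle, IUB288 22 h against vehicle and IUB288 22 h against 4 h livers. Filled green points have an adjusted p under 0.05 and open grey points do not; the scales differ between panels, and Depp1 lies at -5.33 in the first and 4.57 in the last.

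Among the receptors, Insr (Entrez 16337, chr8:3150922-3279649 on the minus strand of GRCm38.p6, 21 coding exons) codes for the insulin receptor. It had 271 CPM in the lowest, 312 in the median and 401 in the highest 4 h liver, then 293, 315 and 338 CPM at 22 h, and 259, 322 and 346 CPM in vehicle. The groups overlapped almost wholly. The log2 fold change was 0.03 ± 0.07 (SE) at 4 h against vehicle, with a 95% CI of -0.11 to 0.17, and 0.01 ± 0.07 at 22 h against vehicle, with a CI of -0.13 to 0.15 (limma-voom adjusted p = 0.763 and 0.938). Leaving out any 1 library kept the 4 h value between -0.02 and 0.06.

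Igf1r (Entrez 16001, chr7:67952257-68233668, plus strand) codes for the related receptor for insulin-like growth factor, which hepatocytes carry little of. It had 9.11, 9.62 and 14.3 CPM in the lowest, median and highest 4 h liver, 7.36, 9.58 and 13.7 CPM at 22 h, and 10.9, 12.5 and 15.6 CPM in vehicle. The groups overlapped, and 7 of 8 livers at each time lay below the vehicle mean. Igf1r was lower than vehicle at 22 h by a log2 fold change of -0.40 ± 0.12 (limma-voom adjusted p = 0.00836), and it did not pass at 4 h, with -0.27 ± 0.11 (adjusted p = 0.0532). The 4 h difference did pass in limma-voom without 4 h replicate 1 (-0.34, adjusted p = 0.0159) or 3 (-0.30, adjusted p = 0.0451), without 22 h replicate 6 (-0.28, adjusted p = 0.0403) or 8 (-0.27, adjusted p = 0.0396), and without vehicle replicate 2 (-0.30, adjusted p = 0.0469) or 4 (-0.30, adjusted p = 0.0399). Per kilobase of coding sequence, Insr stood 30.8 ± 6.84 times as high as Igf1r at 4 h, 32.6 ± 6.11 times at 22 h and 25.0 ± 4.17 times in vehicle (SD, n = 8, no test).

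Of the docking proteins, Irs1 (Entrez 16367, chr1:82233105-82291439, minus strand) has its whole coding sequence in 1 exon. It had 96.8, 127 and 142 CPM in the lowest, median and highest 4 h liver, 58.7, 76.6 and 84.8 CPM at 22 h, and 35.6, 41.1 and 46.7 CPM in vehicle. Every 4 h liver exceeded every 22 h liver, and every 22 h liver exceeded every vehicle liver. Irs1 rose by a log2 fold change of 1.57 ± 0.08 at 4 h, which is 2.97-fold, and by 0.83 ± 0.08 at 22 h, which is 1.78-fold (limma-voom adjusted p = 1.21e-13 and 2.74e-08). The 22 h livers were lower than the 4 h livers by -0.74 ± 0.08 (limma-voom adjusted p = 5.29e-08).

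Irs2 (Entrez 384783, chr8:10984681-11008929, minus strand) codes for the docking protein known to answer fasting and cAMP. It had 24.6, 30.3 and 39.0 CPM in the lowest, median and highest 4 h liver, 7.69, 12.0 and 13.2 CPM at 22 h, and 3.57, 6.24 and 8.43 CPM in vehicle. The 4 h livers stood clear of both other groups. At 22 h replicate 4, at 7.69 CPM, lay below vehicle replicate 1, at 8.43 CPM, and the other livers of the 2 groups did not cross. Irs2 rose by 2.35 ± 0.15 at 4 h, a 5.10-fold difference that was the 209th largest of all genes tested, and by 0.90 ± 0.16 at 22 h (limma-voom adjusted p = 3.34e-12 and 0.000154). The 22 h livers were lower than the 4 h livers by -1.45 ± 0.13 (limma-voom adjusted p = 2.13e-09). Both genes share exonic bases with an antisense gene, Irs1 with Gm9747 over 2822 bases and Irs2 with 9530052E02Rik over 162 bases. The strand setting of the counting is not given in the sources used here, so reads of the partners cannot be told apart.

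The 2 docking proteins did not move in proportion. Per kilobase of coding sequence, Irs2 reached 0.237 ± 0.0431 of the Irs1 level at 4 h, 0.143 ± 0.0119 at 22 h and 0.138 ± 0.0386 in vehicle (SD, n = 8, no test). At 4 h the ratio ran from 0.178 to 0.288, at 22 h from 0.122 to 0.158 and in vehicle from 0.0713 to 0.188. Irs1 was thus the more abundant docking transcript in every liver, and the 4 h ratios overlapped those of vehicle but not those of 22 h livers.

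The promoters of the docking genes and of Depp1, the genes that moved furthest and in opposite directions at 4 h, are shown from 250 bases before to 50 bases after the annotated start. They come from the RefSeq promoter table on GRCm38.p6, in which 9 of the 10 genes, all but Insr, were matched by Entrez number. They were searched on both strands for the cAMP response element TGACGTCA and for its short form TGACG. The short form reads CGTCA on the opposite strand and also lies within the full element. The last motif was GTAAACA, 1 form of the FOXO site, which reads TGTTTAC on the opposite strand and is called the FOXO site below. Matches are in capitals, and those of Irs1 and Pik3r1 are shown beside the others because of their values in these data. The windows are chr6:116650434-116650733 on the plus strand for Depp1, chr8:11008880-11009179 on the minus strand for Irs2, chr1:82291390-82291689 on the minus strand for Irs1, and chr13:101692581-101692880 on the minus strand for the internal start of Pik3r1.
Depp1: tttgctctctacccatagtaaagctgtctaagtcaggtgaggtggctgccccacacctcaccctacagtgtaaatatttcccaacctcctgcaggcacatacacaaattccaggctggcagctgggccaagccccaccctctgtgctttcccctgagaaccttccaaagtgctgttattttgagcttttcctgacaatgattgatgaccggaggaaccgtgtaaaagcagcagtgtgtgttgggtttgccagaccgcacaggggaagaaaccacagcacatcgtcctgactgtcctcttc
Irs2: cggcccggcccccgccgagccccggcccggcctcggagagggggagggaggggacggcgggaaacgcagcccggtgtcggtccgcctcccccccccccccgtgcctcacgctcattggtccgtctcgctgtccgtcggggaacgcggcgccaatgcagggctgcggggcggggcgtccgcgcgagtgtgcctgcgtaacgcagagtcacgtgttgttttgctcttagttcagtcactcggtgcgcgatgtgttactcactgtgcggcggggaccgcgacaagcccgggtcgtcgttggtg
Irs1: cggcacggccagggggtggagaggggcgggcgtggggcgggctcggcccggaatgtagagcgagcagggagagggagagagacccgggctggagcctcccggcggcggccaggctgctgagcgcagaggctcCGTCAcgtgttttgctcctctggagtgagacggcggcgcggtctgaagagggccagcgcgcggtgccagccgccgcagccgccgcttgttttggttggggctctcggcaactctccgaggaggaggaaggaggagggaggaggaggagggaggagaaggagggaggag
Pik3r1: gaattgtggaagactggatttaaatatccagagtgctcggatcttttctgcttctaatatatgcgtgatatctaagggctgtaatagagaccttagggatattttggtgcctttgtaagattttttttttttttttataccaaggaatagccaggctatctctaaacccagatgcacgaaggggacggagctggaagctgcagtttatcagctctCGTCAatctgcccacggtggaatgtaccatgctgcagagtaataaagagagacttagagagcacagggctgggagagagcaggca
Irs1 held the short form as CGTCA 118 bases before its start, and Pik3r1 held it 35 bases before its internal start, while its other window, at chr13:101768168-101768467, held none of the 3 motifs. Neither the Depp1 nor the Irs2 window matched any of them, and other forms of these sites were not searched for. Over all 32851 promoters of the table, 1.79% held the full element, 20.8% the short form and 3.65% the FOXO site. The Irs2 and Irs1 windows were 72.0% and 71.3% G or C, against 51.7% for Depp1 and a median of 52.7% over all promoters. Of the other genes, Grb10 and Akt2 held the short form and Akt1 the FOXO site in at least 1 window. These letters describe the windows shown and no more.

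Pik3r1 (Entrez 18708, chr13:101680761-101768217, minus strand) codes for the regulatory subunit that ties the PI3K catalytic subunit to the IRS proteins, and per kilobase of coding sequence it was the most abundant of the 10 genes in every group. It had 360, 381 and 466 CPM in the lowest, median and highest 4 h liver, 139, 183 and 211 CPM at 22 h, and 242, 257 and 309 CPM in vehicle. No 2 groups overlapped, with the 4 h livers highest and the 22 h livers lowest. Pik3r1 was higher than vehicle at 4 h by a log2 fold change of 0.56 ± 0.07 and lower than vehicle at 22 h by -0.55 ± 0.07 (limma-voom adjusted p = 9.89e-07 and 2.66e-06). The 22 h livers lay below the 4 h livers by -1.11 ± 0.07, a 2.15-fold difference that ranked 24th by p among all genes (limma-voom adjusted p = 1.99e-11).

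Akt1 (Entrez 11651, chr12:112653821-112674884, minus strand) and Akt2 (Entrez 11652, chr7:27591552-27640826, plus strand) code for the kinases that carry the signal on, and Akt2 is the form most tied to metabolic actions of insulin. Akt1 had 50.5, 56.7 and 60.8 CPM in the lowest, median and highest 4 h liver, 50.6, 53.8 and 60.2 CPM at 22 h, and 41.6, 44.8 and 61.7 CPM in vehicle. All vehicle livers but replicate 1 lay below every IUB288 liver. Akt1 was higher by 0.27 ± 0.07 at 4 h and by 0.23 ± 0.07 at 22 h (limma-voom adjusted p = 0.00162 and 0.00923). The 22 h call was lost with library totals in place of TMM (0.20, limma-voom adjusted p = 0.0537). Leaving out any 1 library, also vehicle replicate 1, kept both calls. The log2 fold changes then ran from 0.25 to 0.34 at 4 h and from 0.20 to 0.29 at 22 h.

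Akt2 had 86.5, 90.3 and 106 CPM in the lowest, median and highest 4 h liver, 86.0, 93.7 and 116 CPM at 22 h, and 79.3, 84.7 and 184 CPM in vehicle. The highest vehicle value came from replicate 1, and the next vehicle liver had 92.8 CPM. With all livers Akt2 was not called at 4 h or at 22 h, at log2 fold changes of 0.01 ± 0.12 and 0.04 ± 0.12 (limma-voom adjusted p = 0.943 and 0.839). With vehicle replicate 1 left out it was called higher at both times, by 0.16 at 4 h and 0.18 at 22 h (limma-voom adjusted p = 0.0371 and 0.0206). The part of adipose and muscle RNA in that liver was not tested. Per kilobase of coding sequence Akt2 stood at 1.67 ± 0.144 times Akt1 at 4 h, 1.77 ± 0.243 at 22 h and 2.04 ± 0.407 in vehicle (SD, n = 8, no test), but per kilobase of all exons the median ratio was 0.924, 0.953 and 1.09, so that which of the 2 is more abundant depends on the length used.

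Grb10 (Entrez 14783, chr11:11930499-12037428, minus strand) and Grb14 (Entrez 50915, chr2:64912476-65022766, minus strand) code for adaptors that bind the active insulin receptor and restrain it, and Grb14 is the form known as typical of liver. Grb10 had 9.56, 11.4 and 12.8 CPM in the lowest, median and highest 4 h liver, 2.78, 5.69 and 11.4 CPM at 22 h, and 7.96, 11.0 and 12.98 CPM in vehicle. At 22 h, 7 of the 8 livers had at most 7.12 CPM, below every liver of the other groups, and replicate 8 had 11.4 CPM. Grb10 was lower at 22 h than in vehicle by -0.91 ± 0.18 and lower than at 4 h by -1.04 ± 0.18 (limma-voom adjusted p = 0.000355 and 5.57e-05), and the 4 h livers did not pass against vehicle (0.13 ± 0.15, adjusted p = 0.517).

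The 22 h livers with the least Grb10 were also those with the least endothelial and stellate marker RNA. Replicates 6 and 7, with 2.78 and 3.72 CPM of Grb10, had endothelial sums of 167 and 158 CPM and stellate sums of 224 and 218 CPM. Replicate 8, with 11.4 CPM, had the highest sums of its group, 384 CPM and 646 CPM. For Igf1r the same livers were again lowest and highest, at 7.36 and 8.29 CPM in replicates 6 and 7 and at 13.7 CPM in replicate 8. With replicates 6 and 7 left out, a choice made after these values were seen, Grb10 at 22 h was lower than vehicle by -0.65 (limma-voom adjusted p = 0.00164) and Igf1r by -0.30 (adjusted p = 0.0476). The part of these cell types in the change of Grb10 and Igf1r was not tested.

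Grb14 had 50.6, 52.8 and 60.3 CPM in the lowest, median and highest 4 h liver, 54.3, 63.6 and 74.9 CPM at 22 h, and 57.6, 64.3 and 78.0 CPM in vehicle. The 4 h livers were lowest, and 7 of them, at up to 54.3 CPM, lay below every vehicle liver. Grb14 was lower than vehicle at 4 h by -0.30 ± 0.07 (limma-voom adjusted p = 0.000747), did not pass at 22 h (-0.03 ± 0.07, adjusted p = 0.792), and was higher at 22 h than at 4 h by 0.27 ± 0.07 (adjusted p = 0.0025). Per kilobase of coding sequence, Grb14 stood at 5.22 ± 0.568 times Grb10 at 4 h, 14.1 ± 7.25 at 22 h and 7.09 ± 1.77 in vehicle (SD, n = 8, no test).

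**Figure D3:**
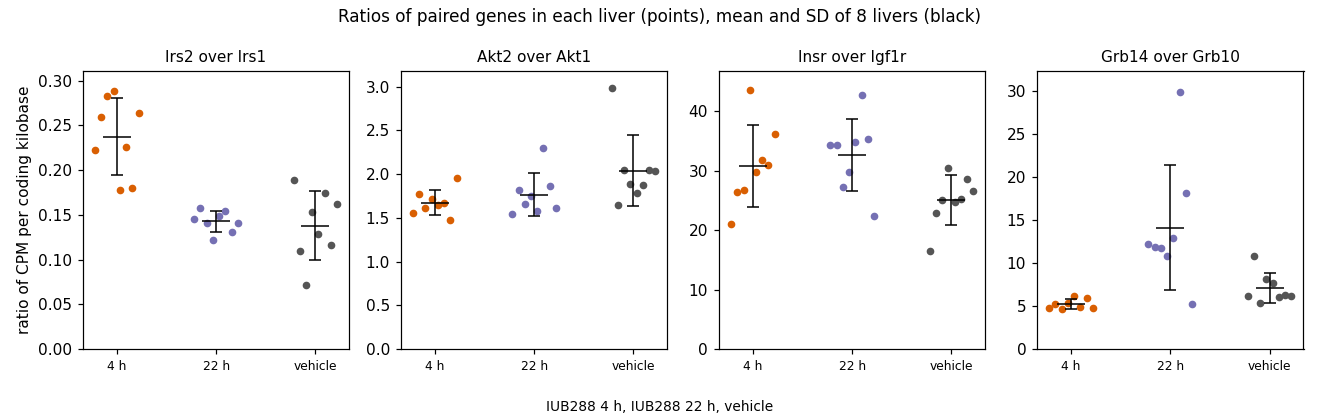
Ratio of paired genes in each liver, in CPM per kilobase of coding sequence, for IUB288 4 h, IUB288 22 h and vehicle livers, on linear axes that start at 0. Points are single livers and black lines are the mean and SD of 8 livers; Irs2 over Irs1 lies between 0.178 and 0.288 at 4 h and at or below 0.188 in the other groups, and Grb14 over Grb10 at 22 h spreads from 5.27 to 29.9.

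Depp1 (Entrez 213393, chr6:116650684-116652847, plus strand) is a small gene with its coding sequence of 615 bases in 1 exon, and its protein is known for a part in autophagy and in the handling of reactive oxygen species. It had 0.367, 1.5 and 2.29 CPM in the lowest, median and highest 4 h liver, 20.3, 34.8 and 41.1 CPM at 22 h, and 29.3, 60.6 and 93.6 CPM in vehicle. In counts, the 4 h libraries held 10 to 77 reads of Depp1, the 22 h libraries 518 to 1349 and the vehicle libraries 754 to 3429. Every 4 h liver lay far below every other liver. At 22 h all 8 livers lay below the vehicle mean, but vehicle replicates 3 and 1, at 29.3 and 31.4 CPM, fell inside the 22 h range.

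Depp1 was lower at 4 h than in vehicle by a log2 fold change of -5.33 ± 0.50, which is 40.2-fold and the 9th largest change of the 11508 genes (limma-voom adjusted p = 3.63e-09). At 22 h it was lower than vehicle by -0.75 ± 0.21, or 1.69-fold (limma-voom adjusted p = 0.00783). Leaving out vehicle replicate 1 gave -0.88. Over 4 h, the 22 h livers were higher by 4.57 ± 0.50, or 23.8-fold, the 5th largest difference of that comparison (limma-voom adjusted p = 9.77e-08). The coefficient of variation of Depp1 was 47.03% at 4 h, where counts were low, 23.1% at 22 h and 42.0% in vehicle. Depp1 and Irs2 thus had the largest fall and the largest rise of the set at 4 h against vehicle. In level, Irs2 stood at 4.71 ± 4.34 times Depp1 per coding kilobase at 4 h, 0.0575 ± 0.0198 at 22 h and 0.0185 ± 0.0101 in vehicle (SD, n = 8, no test). The 4 h ratio had a median of 3.36 and ran from 1.92 to 15.1, the highest in replicate 8, which held 10 counts of Depp1.

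Ordered by mean CPM per kilobase of coding sequence, the 4 h livers ran from Pik3r1 (179 ± 14.97) through Insr (77.6 ± 9.53), Akt2 (65.2 ± 5.28), Akt1 (39.0 ± 2.40), Irs1 (33.6 ± 4.02), Grb14 (33.1 ± 1.96), Irs2 (7.89 ± 1.33), Grb10 (6.38 ± 0.618) and Igf1r (2.59 ± 0.466) to Depp1 (2.40 ± 1.13), as mean ± SD of 8 livers. Neighbours in that order whose ranges of mean ± SD met were Insr and Akt2, Akt1 and Irs1, Irs1 and Grb14, Irs2 and Grb10, and Igf1r and Depp1. At 22 h Depp1 stood at the 4th place with 53.04 ± 12.2, Irs1 at the 7th with 20.1 ± 2.17 and Irs2 at the 9th with 2.88 ± 0.457. There, neighbours met from Pik3r1 down to Akt1 and from Grb10 down to Igf1r, and Irs1 stood clear of both sets. In vehicle Depp1 stood at the second place with 97.5 ± 41.0 and met its neighbours Pik3r1 (122 ± 11.0) and Insr (75.9 ± 7.74), and Irs2 was last with 1.54 ± 0.386, below Igf1r (3.08 ± 0.369) and clear of it. By the length of all exons in place of the coding sequence, genes moved by up to 3 places, and in the 22 h livers Insr led and Pik3r1 was 4th.

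Within a group, 135 relations between 2 of the 10 genes were computed, 45 pairs in each of 3 groups of 8 livers. In exact permutation tests, two-sided, 12 had a Pearson p and 8 a Spearman p under 0.05, and after Benjamini-Hochberg adjustment none did, the smallest adjusted p being 0.0958 for Pearson's r and 0.301 for Spearman's rho. Irs1 and Irs2 at 22 h had r = 0.92 and rho = 0.74 (exact permutation p = 0.00268 and 0.0458, adjusted p = 0.0958 and 0.773), and r was 0.75 without the 2 livers farthest from the median of Irs1. Grb14 and Depp1 at 22 h had r = 0.88 and rho = 0.93 (exact permutation p = 0.00315 and 0.00223, adjusted p = 0.0958 and 0.301), and r was 0.72 without the 2 livers farthest from the median of Grb14. Insr and Pik3r1 in vehicle had r = -0.93 and rho = -0.90 (exact permutation p = 0.00126 and 0.00456, adjusted p = 0.0958 and 0.308), and r was -0.64 without 2 livers.

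Around these genes, the other adaptors and scaffolds of receptor tyrosine kinases were mostly above vehicle at 4 h. Of 13 tested, 7 were higher, 3 lower and 3 not called at 4 h, beside 21.8% of all genes higher and 22.4% lower. The median log2 fold change at 4 h was 0.21 against -0.07 over all genes. At 22 h 5 were higher, 3 lower and 5 not called, beside 17.6% of all genes higher and 19.2% lower. Crkl, which links IRS proteins to further effectors, had 93.8 ± 4.85 CPM at 4 h and 56.98 ± 2.96 CPM in vehicle (log2 fold change 0.72), its relative Crk rose by 0.46 and Sos1, an exchange factor for Ras, by 0.42 (limma-voom adjusted p = 8.51e-12, 2.07e-09 and 8.66e-08). At 22 h the docking protein gene Gab2 was lower by -1.02 and the docking protein gene Frs2 higher by 0.28 (limma-voom adjusted p = 0.000879 and 0.00197). Against 4 h, 8 of the 13 were lower at 22 h and 5 were not called, beside 14.3% of all genes higher and 15% lower. Crkl was at -0.56, Crk at -0.29, Sos2 at -0.34 and Grb2 at -0.18 (limma-voom adjusted p = 1.32e-09, 5.73e-06, 0.000365 and 0.00134). Without 22 h replicate 7, 1 of the 13 was higher at 22 h than at 4 h.

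Other PI3K subunits and lipid phosphatases moved in both directions. Of 17 tested, 6 were higher, 6 lower and 5 not called at 4 h, beside 21.8% of all genes higher and 22.4% lower. At 22 h 3 were higher, 7 lower and 7 not called, beside 17.6% of all genes higher and 19.2% lower. The medians were -0.23 at 4 h and -0.12 at 22 h, against -0.07 and -0.02 over all genes. Pik3c2a, a class II PI3K, had 247 ± 22.5 CPM at 4 h, 110 ± 8.52 CPM at 22 h and 111 ± 15.9 CPM in vehicle, and was higher at 4 h by 1.16 and lower at 22 h than at 4 h by -1.17 (limma-voom adjusted p = 6.40e-12 and 1.20e-11). Its relative Pik3c2b went the other way, with -0.81 at 4 h against vehicle and 0.75 at 22 h against 4 h (limma-voom adjusted p = 1.19e-08 and 9.21e-08). The catalytic subunit gene Pik3ca was higher by 0.28 at 4 h and 0.25 at 22 h, and Inppl1, a lipid phosphatase that removes the PI3K product, by 0.43 at 4 h (limma-voom adjusted p = 2.22e-05, 0.000219 and 3.89e-05). Of the regulatory subunits, Pik3r3 had 4.09 ± 1.49 CPM at 22 h and 7.55 ± 1.90 CPM in vehicle (-0.93, limma-voom adjusted p = 0.000909). The phosphatase genes Inpp4a and Inpp4b moved apart at 22 h, by 0.41 and -1.08 (limma-voom adjusted p = 0.000752 and 0.000156). At 22 h against 4 h, 3 were higher, 4 lower and 10 not called, beside 14.3% of all genes higher and 15% lower. The phosphatase gene Inpp5k was higher by 0.30 (limma-voom adjusted p = 0.00103).

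In the list of AKT, its activator PDK1, mTOR and their targets, 15 were tested. At 4 h 9 were higher, 2 lower and 4 not called (median 0.24), beside 21.8% of all genes higher and 22.4% lower. At 22 h 3 were higher, 2 lower and 10 not called (median 0.07), where the share called did not exceed the 36.8% of all genes. Sgk1, a kinase related to AKT, had 140 ± 27.8 CPM at 4 h, 53.7 ± 28.9 CPM at 22 h and 29.8 ± 4.62 CPM in vehicle, higher by 2.23 at 4 h and 0.69 at 22 h (limma-voom adjusted p = 1.18e-08 and 0.0199). At 4 h Sgk3 was higher by 0.77, Pde3b, a cAMP phosphodiesterase that insulin activates, by 0.63 and Pdpk1, the gene of PDK1, by 0.51 (limma-voom adjusted p = 2.66e-08, 1.62e-07 and 4.96e-07). At 22 h Tbc1d4, an AKT substrate, was lower by -0.58 and Rps6 higher by 0.44 (limma-voom adjusted p = 0.00329 and 0.000547). Rps6 has many processed copies in the genome, and its reads are uncertain for that reason. Set against 4 h, the 22 h livers had 7 lower, 1 higher and 7 not called, beside 15% of all genes lower and 14.3% higher. Sgk1 was at -1.54, Sgk3 at -0.78, Pdpk1 at -0.40 and the cap-binding factor gene Eif4e at -0.32 (limma-voom adjusted p = 3.02e-06, 3.93e-08, 2.32e-05 and 1.79e-05). Some counts rested on 1 library: without vehicle replicate 2, 4 were lower at 4 h and 2 higher at 22 h than at 4 h, and without vehicle replicate 1, 5 were higher at 22 h than in vehicle.

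Of 29 negative regulators of the insulin signal tested, 11 were higher, 3 lower and 15 not called at 4 h (median 0.11), and 5 were higher, 4 lower and 20 not called at 22 h (median -0.05). Of all genes, 44.2% were called at 4 h, 21.8% higher and 22.4% lower, and 36.8% at 22 h, 17.6% higher and 19.2% lower. The share of this list called in either direction at 4 h was near that of all genes. The share called higher at 4 h, 11 of 29, was above that of all genes, and the share called lower, 3 of 29, was below it. Neither difference was tested. At 22 h neither direction exceeded the share of all genes. Socs2, a suppressor of cytokine signalling, had 8.02 ± 0.938 CPM at 4 h, 12.2 ± 4.02 CPM at 22 h and 24.9 ± 9.00 CPM in vehicle, lower by -1.55 and -1.0 (limma-voom adjusted p = 8.10e-07 and 0.000184). At 4 h Ppp2ca, a catalytic subunit of a major serine phosphatase, was higher by 0.50, Stxbp4 by 0.53 and the stress kinase gene Mapk9 by 0.31 (limma-voom adjusted p = 6.56e-09, 3.04e-05 and 2.30e-05). Ahsg, which codes for fetuin-A, a secreted inhibitor of the insulin receptor, had 6420 ± 1256 CPM at 22 h and 2955 ± 453 CPM in vehicle (1.11), and Ceacam1, which takes part in insulin clearance, was higher by 0.63 (limma-voom adjusted p = 5.31e-08 and 3.07e-06). The protein kinase C gene Prkce was lower by -0.31 at 22 h (limma-voom adjusted p = 0.000424). Between 22 h and 4 h, 4 were higher, 7 lower and 18 not called, beside 14.3% of all genes higher and 15% lower. Grb7, the third member of the Grb10 and Grb14 family, was at 0.68, Ppp2ca at -0.54, Socs7 at -0.44 and Mapk9 at -0.31 (limma-voom adjusted p = 1.49e-06, 3.07e-09, 5.65e-05 and 3.10e-05). At 4 h, 5 were lower instead of 3 without 4 h replicate 1, without 22 h replicate 6, without 22 h replicate 7 or without vehicle replicate 7.

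Downstream, genes that FOXO factors bind moved in both directions, and no FOXO factor gene was among those tested. Of 24 tested, 10 were higher, 7 lower and 7 not called at 4 h (median -0.01), beside 21.8% of all genes higher and 22.4% lower. At 22 h 8 were higher, 3 lower and 13 not called (median 0.05), beside 17.6% of all genes higher and 19.2% lower. Igfbp1, a secreted binding protein that insulin represses, had 191 ± 79.2 CPM at 4 h and 18.4 ± 9.69 CPM in vehicle (3.62, limma-voom adjusted p = 1.14e-08). The gluconeogenic genes Pck1 and Ppargc1a rose by 2.39 and 2.28 and Tat, of tyrosine breakdown, by 3.42 (limma-voom adjusted p = 3.47e-10, 1.46e-12 and 2.31e-13). At 22 h Tat and Pck1 were still higher than vehicle, by 1.93 and 1.5, the autophagy kinase gene Ulk1 was higher by 0.53, and the stress sensor gene Sesn1 was lower by -0.80 (limma-voom adjusted p = 9.79e-09, 1.49e-06, 3.17e-06 and 3.11e-06). Between 22 h and 4 h, 6 were higher, 10 lower and 8 not called, beside 14.3% of all genes higher and 15% lower. Ppargc1a was at -2.24, Tat at -1.49, the transcription cofactor gene Cited2 at 1.17 and the autophagy gene Atg14 at 0.72 (limma-voom adjusted p = 3.50e-12, 9.31e-07, 8.02e-10 and 2.14e-07). Depp1, set against these FOXO-bound genes, fell further at 4 h than any of the 24. At 22 h the number lower than vehicle was 5 instead of 3 without 22 h replicate 2, 22 h replicate 7 or vehicle replicate 2, and 6 without 22 h replicate 6.

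Genes that insulin raises in liver were mostly lower than in vehicle at both times. Of 16 tested, 11 were lower, 1 higher and 4 not called at 4 h (median -0.73, against -0.07 over all genes). At 22 h 14 were lower, 1 higher and 1 not called (median -0.99, against -0.02 over all genes). Of all genes, 22.4% were lower and 21.8% higher at 4 h, and 19.2% were lower and 17.6% higher at 22 h. Scd1, a fatty acid desaturase gene, had 8942 ± 4430 CPM at 4 h, 3243 ± 1558 CPM at 22 h and 33203 ± 11287 CPM in vehicle (-2.04 and -3.44, limma-voom adjusted p = 0.000121 and 1.65e-07). Thrsp, a lipogenic factor, was lower by -2.02 and -3.16 at 4 h and 22 h, and Gpam, of glycerolipid synthesis, by -1.71 and -1.14 (limma-voom adjusted p = 3.42e-06, 1.48e-08, 9.43e-11 and 3.69e-07). At 22 h Acacb, a carboxylase gene of fatty acid metabolism, was lower by -1.96 (limma-voom adjusted p = 4.95e-08). Between 22 h and 4 h, 3 were higher, 6 lower and 7 not called, beside 14.3% of all genes higher and 15% lower. Acly and Elovl6, of fatty acid synthesis, and Acacb were lower by -1.58, -1.23 and -1.0 (limma-voom adjusted p = 3.06e-07, 1.72e-07 and 0.000285). The 1 gene called higher at 22 h was Nr1h3, at 0.17 (limma-voom adjusted p = 0.0429), and that call was lost without any 1 of 22 h replicates 1, 2, 6 and 7 or of vehicle replicates 2, 3, 4, 6 and 8. Without vehicle replicate 1, 2 were higher at 4 h.

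**Figure D4:**
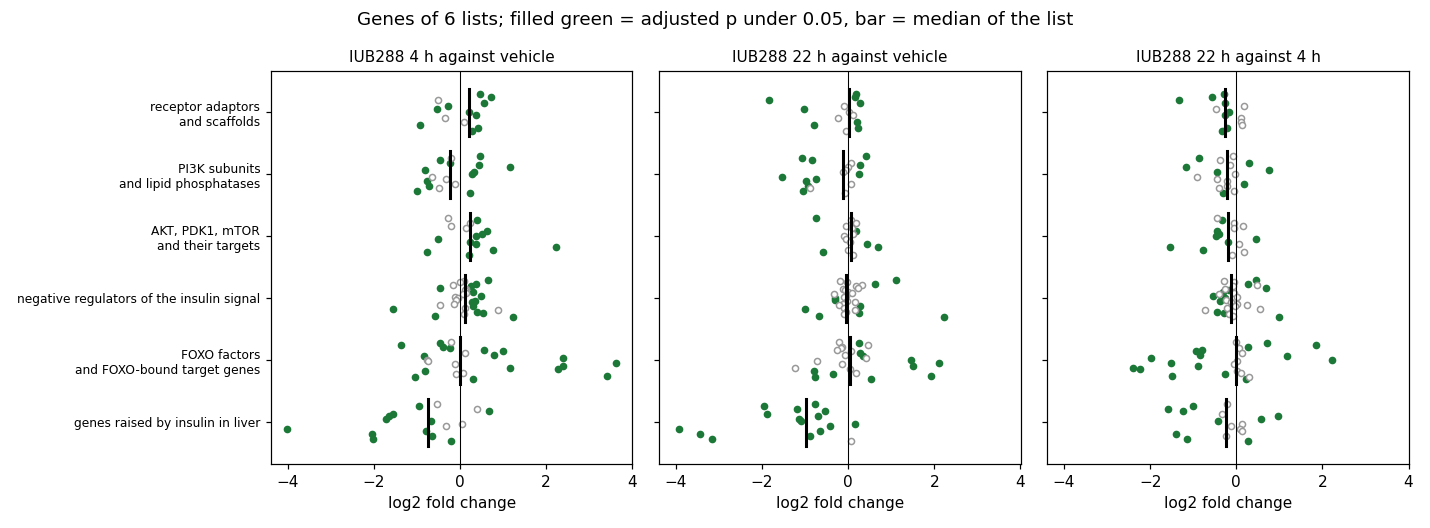
Log2 fold change of every tested gene of 6 lists around the 10 genes, in IUB288 4 h against vehicle, IUB288 22 h against vehicle and IUB288 22 h against 4 h livers. Each point is a gene, filled green where its limma-voom adjusted p is under 0.05, and bars mark list medians; the FOXO list holds tested target genes and no FOXO factor gene. Against vehicle the list of genes raised by insulin lies furthest to the left of the 6, with medians of -0.73 at 4 h and -0.99 at 22 h, while between 22 h and 4 h the receptor adaptors have the lowest median, -0.26.

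Among the 6392 named genes of at least 5 CPM in 1 group, those nearest to Depp1 in their pair of fitted log2 changes over 24 livers were Arrdc3, Rgs16, B3galt1 and Aqp7. Arrdc3, at a distance of 0.76 log2 units, had 23.1 CPM at 4 h, 438 CPM at 22 h and 575 CPM in vehicle, with log2 fold changes of -4.63 at 4 h and -0.45 at 22 h. The other 3 lay 2.62 to 2.65 away. The distance depends on the size of a change, and Depp1 had the 9th largest at 4 h. Its wide distances therefore do not show that its pattern was uncommon. Rgs16 was also lower than vehicle at both times, by -7.95 at 4 h and -0.85 at 22 h. Irs2 had closer neighbours, with Kctd15 at 0.05 (2.39 at 4 h and 0.93 at 22 h), Ypel4 at 0.18, Sgk1 at 0.24 and Hip1r at 0.26. Insr, which did not pass, lay nearest to Cd81, Gdi2, Zfp64 and Dph1, all within 0.01 log2 units and none of them called against vehicle. This likeness rests on 2 fitted differences that share the vehicle livers.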

How the data were processed

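Raw read counts per gene, deposited by the authors in 1 table of whole numbers beside other gene columns, were used as given. The submitters' processing notes name cutadapt, GSNAP and GRCm38; versions, counting tool, annotation and strand setting are not given in the sources used here. Columns were matched to mice by the names in the sample descriptions.

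An expression filter on the 3 groups (count of 10 scaled to library size in 8 libraries, total of 15) left 11508 of 22355 genes and 99.92% of counts. TMM scaling was written out in R 4.3.3, with trims of 30% and 5%. Voom weights (offset 0.5) and limma 3.58.1 fitted the means of 3 groups, on 21 residual degrees of freedom plus 4.08 from the prior. Adjustment was by Benjamini-Hochberg over all genes. The planned edgeR test and the DESeq2 alternative were not run, because an automated unit check did not take the quoted layout of the table as counts. Within groups, the exact permutation tests were computed over all orders of the 8 livers with numpy 2.4.6, and scipy 1.17.1 gave the ranks. The test was checked on simulated counts for 4 h against vehicle (11613 genes). It recovered 53.7% of 67 genes changed 1.5-fold, 86.6% of 67 changed 2-fold and 98.5% of 66 changed 4-fold. Of its 160 calls, 1 was false. Far fewer genes were changed there than were called in the livers, so shifts of that breadth were not checked.

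All 10 genes are named. In each list and comparison the 4 genes of smallest p, among those that reach 1 CPM, are named, except some that are counted in their lists but not reported here by name, and Nr1h3 was added after its value was seen. The 10 genes and the lists were chosen with earlier results of these data known. No 2 libraries of a group were copies, the smallest chi-square over its degrees of freedom being 21.6 in 84 pairs. Alternatives were other scalings, filters, weights and models, and leaving out each library.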

Additional observations from a re-analysis of the deposited data

Results flagged for a closer look

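In 5 of the 30 sets of 8 livers looked at (10 genes in 3 groups), the highest liver stood apart from the rest by more than Dixon's 95% limit, where chance gives about 1 in 20. Pik3r1 reached 466 CPM in 4 h replicate 8, with the next 4 h liver at 392 CPM. Grb14 reached 60.3 CPM in 4 h replicate 5, with the next at 54.3 CPM. Akt2 reached 116 CPM in 22 h replicate 6, with the next at 99.9 CPM. In vehicle replicate 1, which also held the brown fat gene Ucp1, Akt2 reached 184 CPM and Akt1 61.7 CPM, with the next vehicle livers at 92.8 CPM and 47.9 CPM.

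For 6 genes the change at 22 h differed from the change at 4 h, by the limma-voom test of 22 h against 4 h with adjustment over all genes. The difference of the log2 changes was -0.74 for Irs1 (adjusted p = 5.29e-08), -1.45 for Irs2 (adjusted p = 2.13e-09), -1.11 for Pik3r1 (adjusted p = 1.99e-11) and -1.04 for Grb10 (adjusted p = 5.57e-05). It was 0.27 for Grb14 (adjusted p = 0.0025) and 4.57 for Depp1 (adjusted p = 9.77e-08). For each gene all 8 of the 22 h livers differed from the 4 h mean in that direction, except for Grb10, with 7.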

How the results depend on the processing

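Of the 10 genes, none changed direction of a call under the alternatives run. Over all of them, the number of the 10 genes called was 6 or 7 at 4 h, 6 to 8 at 22 h and 6 between 22 h and 4 h. Leaving out 1 library at a time, genes called ranged from 4746 to 5251, from 3846 to 4293 and from 3080 to 3724, and the 10 genes gave 6 to 7, 7 to 8 and 6 calls. Igf1r at 4 h was called with library totals in place of TMM (-0.33, limma-voom adjusted p = 0.0384), with at least 1 CPM in 8 livers (-0.31, adjusted p = 0.0254) and with the 16 livers of that comparison alone (-0.28, adjusted p = 0.0364). With the replicate number as a block, genes called were 5422, 4396 and 3430 and no call of the 10 genes changed; the block counts as an alternative only, since 24 same-numbered pairs of livers had correlations of -0.219 to 0.134 (2 over 0.1), and 4 of 24 livers correlated best with their own number. Counts of list genes moved by over 1.5 times in 38 cases, all of them counts of at most 6. The edgeR and DESeq2 alternatives were not run. Depp1 at 4 h rests on 10 to 77 counts a library, which limits its fold more than that of the other genes.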
